A study of Mus musculus with 23 samples.

Results

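RNA from small numbers of mouse spleen CD3+ T cells was compared between libraries made from 500 and from 1000 cells. The members were the 6 libraries that the labels give these inputs, 3 at 500 cells and 3 at 1000 cells, of 23 libraries in the series. All 22488 gene symbols of the count table were considered, and 12838 passed edgeR's filter on low counts. The series tests EASY-RNAseq, a low-input protocol that primes cDNA with oligo-dT and cuts it with the Tn5 transposase. It holds 12 T cell libraries, at 100, 500, 1000 and 10000 cells, and 11 libraries of diluted RNA, which are not analysed here. All T cells came from animals labelled strain C57 and aged 6 to 18 weeks, and the labels name no treatment, allele or number of animals. They do not say whether the 3 libraries of an input came from separate animals, so p-values measure only the spread between these libraries, which may be technical.

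A T cell preparation from spleen can carry a few cells of other kinds. B cells display an antibody on their surface and present peptides on MHC class II, while plasma cells have stopped dividing and secrete 1 antibody in large amounts. A plasma cell and its clonal relatives share 1 rearranged heavy chain variable gene and 1 rearranged light chain variable gene. Red pulp macrophages clear old erythrocytes and recycle their iron, and erythroid precursors also live in mouse spleen. In bulk libraries like these, fewer cells of a type and less RNA per cell cannot be told apart.

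The variable gene that marked the 500-cell libraries was Ighv1-9, a heavy chain segment of the Ighv1 family. Its coding sequence is shown beside that of Ighv1-77, the closest of 112 other Ighv genes by alignment, because reads of such relatives can be assigned to the wrong member. Both lie on the minus strand of chromosome 12 in GRCm38, Ighv1-9 at chr12:114583569-114584002 and Ighv1-77 at chr12:115861867-115862300, each with 351 coding bases in GENCODE M21. The first 300 coding bases are printed, and capitals mark the 27 positions at which they differ there.
Ighv1-9: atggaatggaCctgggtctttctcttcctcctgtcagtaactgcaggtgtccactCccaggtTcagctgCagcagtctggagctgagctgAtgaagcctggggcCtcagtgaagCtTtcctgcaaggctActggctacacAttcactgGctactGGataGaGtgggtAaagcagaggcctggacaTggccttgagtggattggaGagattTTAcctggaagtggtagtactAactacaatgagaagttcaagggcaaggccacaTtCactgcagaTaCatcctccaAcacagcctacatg
Ighv1-77: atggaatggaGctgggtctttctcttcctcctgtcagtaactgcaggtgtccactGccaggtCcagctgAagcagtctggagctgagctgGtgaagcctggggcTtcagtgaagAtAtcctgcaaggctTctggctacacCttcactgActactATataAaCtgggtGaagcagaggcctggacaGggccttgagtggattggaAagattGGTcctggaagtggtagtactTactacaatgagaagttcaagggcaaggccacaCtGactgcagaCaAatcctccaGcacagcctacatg
Over their whole length the pair were identical at 319 of 351 bases (90.9%), and 0 other Ighv genes reached 95% identity to Ighv1-9. The median over the others was 76.2%. Ighv1-77 had 0, 0 and 2 counts in the 500-cell libraries and 0, 0 and 0 in the 1000-cell libraries, whereas Ighv1-9 had 603, 677 and 615 counts at 500 cells and 1, 1 and 2 at 1000 cells.

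The libraries were of similar depth, with 2222347 to 2575103 counts at 500 cells and 2363975 to 2715179 at 1000 cells. Levels below are counts per 1000000 counts of the library (CPM), and a fold is that of 500 over 1000 cells. The labelled cell type showed in both groups: all 22 T cell core genes were tested, and their summed share of the counts was 0.955% ± 0.00552 at 500 cells and 1.00% ± 0.0113 at 1000 cells (SD, n = 3 each). Lck, the kinase that starts T cell receptor signalling, had 987, 1026 and 979 CPM at 500 cells and 957, 978 and 918 CPM at 1000 cells. The biological coefficient of variation between libraries was 0.298 within the 500-cell group and 0.236 within the 1000-cell group. No pair of libraries agreed within sampling noise: chi-square per degree of freedom was 5.74 to 6.04 between 500-cell libraries and 4.66 to 4.75 between 1000-cell libraries.

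To find which transcripts the 2 inputs did not share, each gene was put through the quasi-likelihood test of edgeR, with p adjusted by Benjamini-Hochberg for 12838 genes and a threshold of 0.05. At 500 cells, 24 genes were higher (0.187% of those tested) and 32 were lower (0.249%), together 0.436%, while 1407 genes had an unadjusted p under 0.05. The median log2 fold change over all genes was 0.01, with 6564 genes above 0 and 6274 below. The largest rises were antibody genes, and the falls included Aqp1 of erythroid cells and Csf1r, C1qa and Vcam1 of macrophages. On simulated counts for this comparison the test recovered 41% of 2-fold and 76% of 4-fold changes, so a gene left uncalled may still differ. In a fit that also held the 100-cell and 10000-cell libraries, 3 genes stayed higher (Igha, Ighv1-9 and 1 kappa variable gene) and 0 stayed lower, with 389 and 501 genes at an unadjusted p under 0.05. DESeq2 on the 6 libraries called 133 higher and 184 lower.

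**Figure D1:**
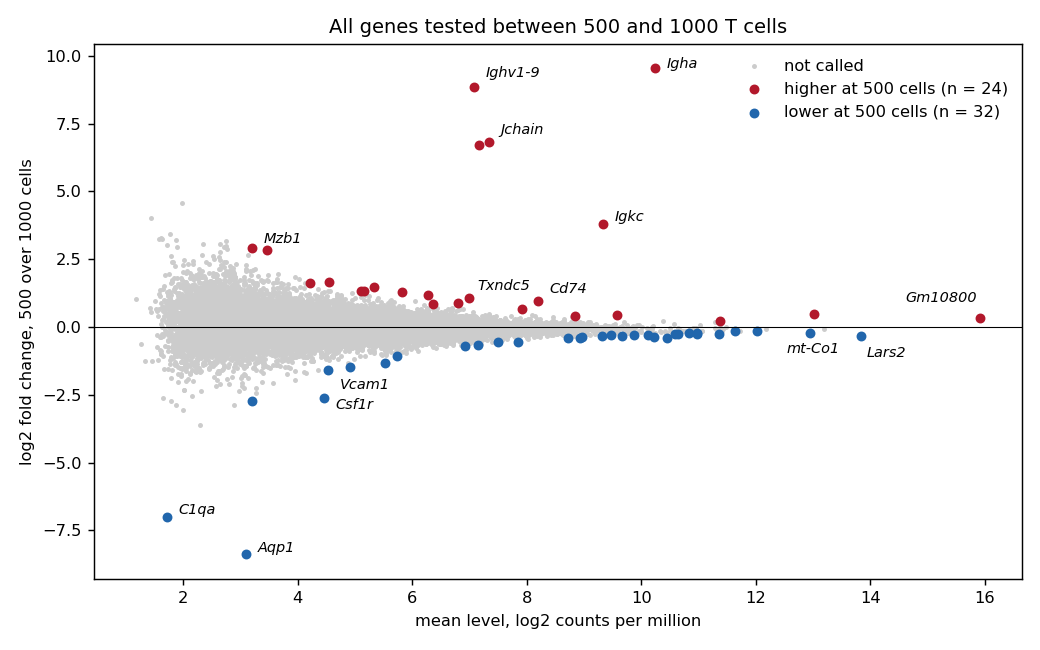
Log2 fold change (500 over 1000 cells) against mean level (log2 CPM) for the genes tested, 1 point a gene. The 24 genes higher at 500 cells include 5 antibody genes with log2 fold changes from 3.80 to 9.54, and the 32 lower genes are in blue.

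Antibody genes set the 500-cell libraries apart. Igha, the constant region of the IgA heavy chain, had 2471, 2429 and 2324 CPM in the 500-cell libraries, against 2.54, 0.737 and 6.39 CPM in the 1000-cell libraries. Every 500-cell library was thus far above every 1000-cell library, with a log2 fold change of 9.54 (SE 0.151, edgeR adjusted p = 1.81e-36). The 10000-cell libraries, which were not in this fit, had 1.95, 4.41 and 3.82 CPM, close to the 1000-cell level. Jchain, the small chain that joins IgA and IgM units into polymers, had 358, 313 and 288 CPM at 500 cells, against 2.54, 3.68 and 2.00 CPM at 1000 cells. Its groups did not overlap, and its log2 fold change was 6.81 (SE 0.225, edgeR adjusted p = 5.24e-25). Igkc, the kappa light chain constant region, had 1205, 1233 and 1185 CPM at 500 cells, against 79.1, 88.8 and 90.3 CPM at 1000 cells. It rose by 3.80 on the log2 scale (SE 0.0868, edgeR adjusted p = 9.83e-31). Counts for immunoglobulin genes made up 0.547% ± 0.00725 of the 500-cell libraries and 0.110% ± 0.0015 of the 1000-cell libraries (SD, n = 3 each).

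Most variable gene counts at 500 cells lay on 1 heavy chain and 1 kappa gene. Ighv1-9 had 269, 263 and 277 CPM at 500 cells, against 0.423, 0.368 and 0.799 CPM at 1000 cells (its log2 fold change was 8.85, SE 0.292, edgeR adjusted p = 5.24e-25). It took 77.0%, 77.8% and 81.7% of all Ighv counts in the 500-cell libraries, against 0.926%, 0.741% and 1.68% in the 1000-cell libraries. The leading kappa variable gene had 289, 292 and 269 CPM at 500 cells, against 2.96, 3.31 and 1.60 CPM at 1000 cells (its log2 fold change was 6.71, SE 0.233, edgeR adjusted p = 2.61e-24). That 1 gene held a mean of 74.9% ± 0.471 of Igkv counts at 500 cells (SD, n = 3), against 3.95%, 5.59% and 2.74% at 1000 cells. At 1000 cells the leading segments, each picked for its lead there, were Ighv1-22 with 4.79% ± 2.46 of Ighv counts and Igkv6-23 with 4.49% ± 1.74 of Igkv counts. The same segments took 0.0766% ± 0.133 and 0.538% ± 0.442 over all 3 libraries of 500 cells (SD, n = 3). The kappa lead at 1000 cells was narrow, at 8, 10 and 4 counts against 7, 9 and 4 for the leader at 500 cells. Igkv6-23 itself had 1, 10 and 4 counts at 500 cells, where the family total was larger. No single segment dominated at 1000 cells. The lambda variable genes were sparse, with 12.9 ± 4.04 CPM at 500 cells and 6.19 ± 2.86 CPM at 1000 cells, and Iglv1 led in both.

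Total counts for the heavy chain variable family were 342 ± 6.59 CPM at 500 cells and 47.7 ± 2.02 CPM at 1000 cells, and for the kappa family 378 ± 14.8 CPM at 500 cells and 64.2 ± 9.28 CPM at 1000 cells (SD, n = 3 each). Without Ighv1-9, the other Ighv genes summed to 80.4, 74.9 and 62.1 CPM at 500 cells and 45.3, 49.4 and 46.7 CPM at 1000 cells. Without the leading kappa gene, the other Igkv genes summed to 94.2, 97.5 and 92.2 CPM at 500 cells and 71.9, 56.0 and 56.7 CPM at 1000 cells. The rest of both families was thus also higher in every 500-cell library, by less than the leading genes; these sums were not tested. Between the 500-cell libraries, the coefficient of variation of the level was 3.14% for Igha, 2.00% for Igkc, 2.57% for Ighv1-9, 4.41% for the leading kappa gene and 11.1% for Jchain. Independent counts at these levels would give 1.33%, 1.88%, 3.98%, 3.88% and 3.66%, in the same order. Whether the 3 libraries of an input were parts of 1 cell sample was not tested, and p-values do not cover differences between cell samples if so.

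The class of heavy chain differed as well. Igha took 69.4% ± 1.80 of the counts on heavy chain constant genes at 500 cells and 0.364% ± 0.321 at 1000 cells, whereas Ighm, the IgM chain of naive B cells, took 25.7% ± 1.14 at 500 cells and 89.0% ± 2.16 at 1000 cells (SD, n = 3 each). Ighm itself had 844, 928 and 901 CPM at 500 cells and 777, 786 and 775 CPM at 1000 cells, which did not overlap but did not pass the test (log2 fold change 0.18, edgeR adjusted p = 0.244). IgG chains stayed minor, with Ighg2b at 0.258% ± 0.142 of heavy chain constant counts at 500 cells and 0.633% ± 0.153 at 1000 cells (SD, n = 3 each).

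**Figure D2:**
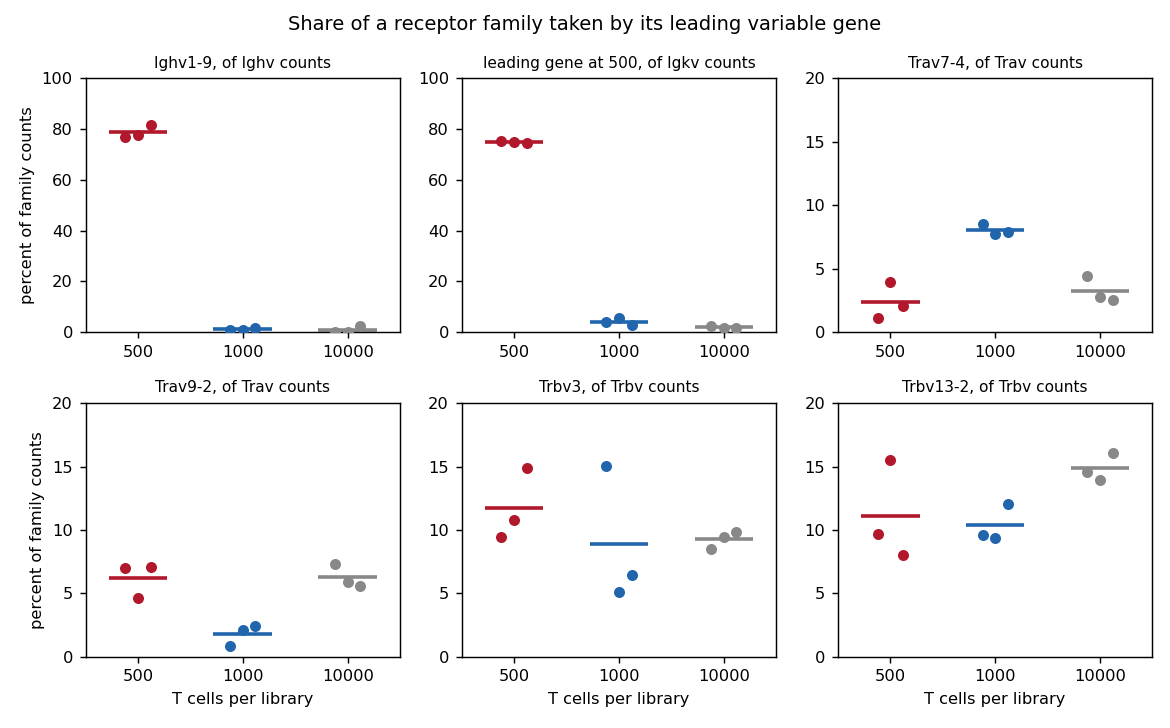
Percent of a receptor family's counts on its leading variable gene, in libraries from 500, 1000 and 10000 T cells, where points are libraries and bars are means. Antibody genes have an axis to 100% and T cell receptor genes to 20%. Ighv1-9 and the leading kappa gene take 78.8% and 74.9% on average at 500 cells, and at most 5.59% in any 1000-cell library.

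To ask whether the antibody genes came with other plasma cell genes, a list of 15 such genes was followed, of which 12 were tested. Igha, Jchain and Mzb1 were called higher and 0 were called lower, beside 0.187% and 0.249% of all genes. Since Igha and Jchain raised the question, Mzb1 was the only other member called. With Igha and Jchain included, the list's median log2 fold change was 0.84 beside 0.01 for all genes. Of the 12 tested, 10 were above 0 and 2 below, beside 6564 above and 6274 below over all 12838 genes. A total of 6 members, Igha and Jchain among them, had groups that did not overlap with 500 above 1000, beside 8.19% of all genes tested. Mzb1, an endoplasmic reticulum protein that helps assemble antibody, had 10.7, 29.1 and 9.0 CPM at 500 cells, against 1.69, 1.47 and 3.20 CPM at 1000 cells. It rose by 2.91 on the log2 scale (SE 0.664, edgeR adjusted p = 0.0273), and without 500-cell replicate 2, its highest library, the adjusted p was 0.37. Leaving out 1000-cell replicate 1, 2 or 3 gave adjusted p of 0.123, 0.158 and 0.0718. Xbp1, the transcription factor of the secretory programme, had 89.8, 76.1 and 95.8 CPM at 500 cells and 58.4, 52.3 and 75.5 CPM at 1000 cells, and was not called (edgeR adjusted p = 0.354). Irf4, a regulator of plasma cell formation, had 38.3 ± 6.41 CPM at 500 cells and 18.6 ± 6.65 CPM at 1000 cells, and was not called either (edgeR adjusted p = 0.171). Prdm1, which shuts off the B cell programme, averaged 5.59 ± 4.40 CPM at 500 cells and 15.3 ± 4.47 CPM at 1000 cells (log2 fold change -1.47, edgeR adjusted p = 0.305; SD, n = 3 each). Sdc1 and Pou2af1, also in the list, had log2 fold changes of 0.05 and -0.25 and were not called (edgeR adjusted p = 0.991 and 0.826). The list's share of the counts, Igha and Jchain included, was 0.298% ± 0.0103 at 500 cells and 0.0192% ± 0.000918 at 1000 cells, a ratio of 15.5. Without Igha and Jchain the share was 0.0254% ± 0.000672 at 500 cells and 0.0186% ± 0.000743 at 1000 cells (SD, n = 3 each).

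Of 21 secretory pathway genes tested, 1 was called higher and 0 lower, beside 0.187% and 0.249% of all genes. Their median log2 fold change was 0.02. The called gene, Txndc5, is a protein disulfide isomerase of the endoplasmic reticulum, and it had 175, 168 and 175 CPM at 500 cells, against 74.0, 78.1 and 93.5 CPM at 1000 cells. Its groups did not overlap, and it rose by 1.07 on the log2 scale (SE 0.157, edgeR adjusted p = 4.37e-05). Edem1, which sends misfolded glycoproteins for degradation, had 327, 336 and 283 CPM at 500 cells and 216, 251 and 224 CPM at 1000 cells, just outside the threshold (edgeR adjusted p = 0.0517). The chaperone Hspa5 was level, with 634 ± 21.6 CPM at 500 cells and 627 ± 41.7 CPM at 1000 cells (log2 fold change 0.01, edgeR adjusted p = 0.991; SD, n = 3 each).

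B cell genes showed smaller differences. All 20 listed B cell genes were tested and all had a log2 fold change above 0, with a median of 0.65, but 2 passed the test, Igkc and Ighd. Over all 12838 genes tested, 6564 were above 0 and 0.187% were called higher. Among the 20, 10 had 500-cell libraries above all 1000-cell libraries, beside 8.19% of all genes tested. Ighd, the IgD chain of mature naive B cells, had 125, 139 and 172 CPM at 500 cells, against 77.4, 63.3 and 93.9 CPM at 1000 cells (a log2 rise of 0.88, SE 0.178, edgeR adjusted p = 0.00728). The call was lost without 500-cell replicate 3 (adjusted p = 0.0912), without 1000-cell replicate 1 (0.0596) and without 1000-cell replicate 2 (0.144). Cd79a, a signalling chain of the B cell receptor, averaged 55.1 ± 9.93 and 31.8 ± 5.2 CPM (edgeR adjusted p = 0.202), and Pax5, the factor that fixes B cell identity, 34.1 ± 4.62 and 23.0 ± 8.65 CPM (edgeR adjusted p = 0.545), in 500-cell and 1000-cell libraries (SD, n = 3 each). Fcrla, an intracellular Fc receptor-like protein of B cells, averaged 25.1 ± 4.04 CPM at 500 cells and 7.39 ± 3.66 CPM at 1000 cells (SD, n = 3 each), with an edgeR adjusted p of 0.0551. The summed share of the list was 0.300% ± 0.0105 at 500 cells and 0.143% ± 0.00102 at 1000 cells. Without Igkc it was 0.179% ± 0.00915 at 500 cells, against 0.135% ± 0.000419 at 1000 cells (SD, n = 3 each), and the libraries still did not overlap. Fcmr, an Fc receptor for IgM that mature B cells carry, is outside the list and had 49.1, 52.0 and 76.5 CPM at 500 cells, against 30.0, 21.7 and 12.4 CPM at 1000 cells (its log2 fold change was 1.46, SE 0.302, edgeR adjusted p = 0.00999). It lost its call without 500-cell replicate 3 (adjusted p = 0.105), 1000-cell replicate 2 (0.0824) or 1000-cell replicate 3 (0.179).

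Some antigen presentation genes were higher too. Of 14 genes of dendritic cells and MHC class II, 11 were tested, all 11 had a log2 fold change above 0, and 3 were called higher, with a median of 0.75. Over all 12838 genes tested, 6564 were above 0 and 0.187% were called higher. Cd74, the invariant chain that guides MHC class II molecules, had 383, 374 and 409 CPM at 500 cells, against 195, 220.2 and 185 CPM at 1000 cells. It rose by 0.95 on the log2 scale (SE 0.107, edgeR adjusted p = 1.07e-07), with no overlap between the groups. H2-Ab1, an MHC class II beta chain, had 98.7, 122 and 103 CPM at 500 cells, against 60.5, 37.6 and 43.6 CPM at 1000 cells (its log2 fold change was 1.19, SE 0.21, edgeR adjusted p = 0.00109). Ciita, the transactivator that switches on the MHC class II genes, had 50.5, 46.6 and 50.8 CPM at 500 cells, against 23.7, 19.2 and 15.2 CPM at 1000 cells. It rose by 1.34 (SE 0.295, edgeR adjusted p = 0.0204), and its call was lost without 500-cell replicate 1 (adjusted p = 0.0581) or 3 (0.0749) and without 1000-cell replicate 2 (0.123) or 3 (0.202). The other chains H2-Aa and H2-Eb1 averaged 101 ± 30.1 and 64.3 ± 4.43 CPM at 500 cells, against 65.0 ± 6.71 and 38.8 ± 6.98 CPM at 1000 cells (SD, n = 3 each), and were not called (edgeR adjusted p = 0.174 and 0.201). B cells and dendritic cells both make these class II genes. Among genes closer to dendritic cells, Zbtb46 averaged 24.1 ± 2.03 CPM at 500 cells and 12.1 ± 1.33 CPM at 1000 cells and Xcr1 6.85 ± 4.40 CPM at 500 cells and 4.06 ± 2.40 CPM at 1000 cells (SD, n = 3 each), neither of them called (edgeR adjusted p = 0.304 and 0.798).

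**Figure D3:**
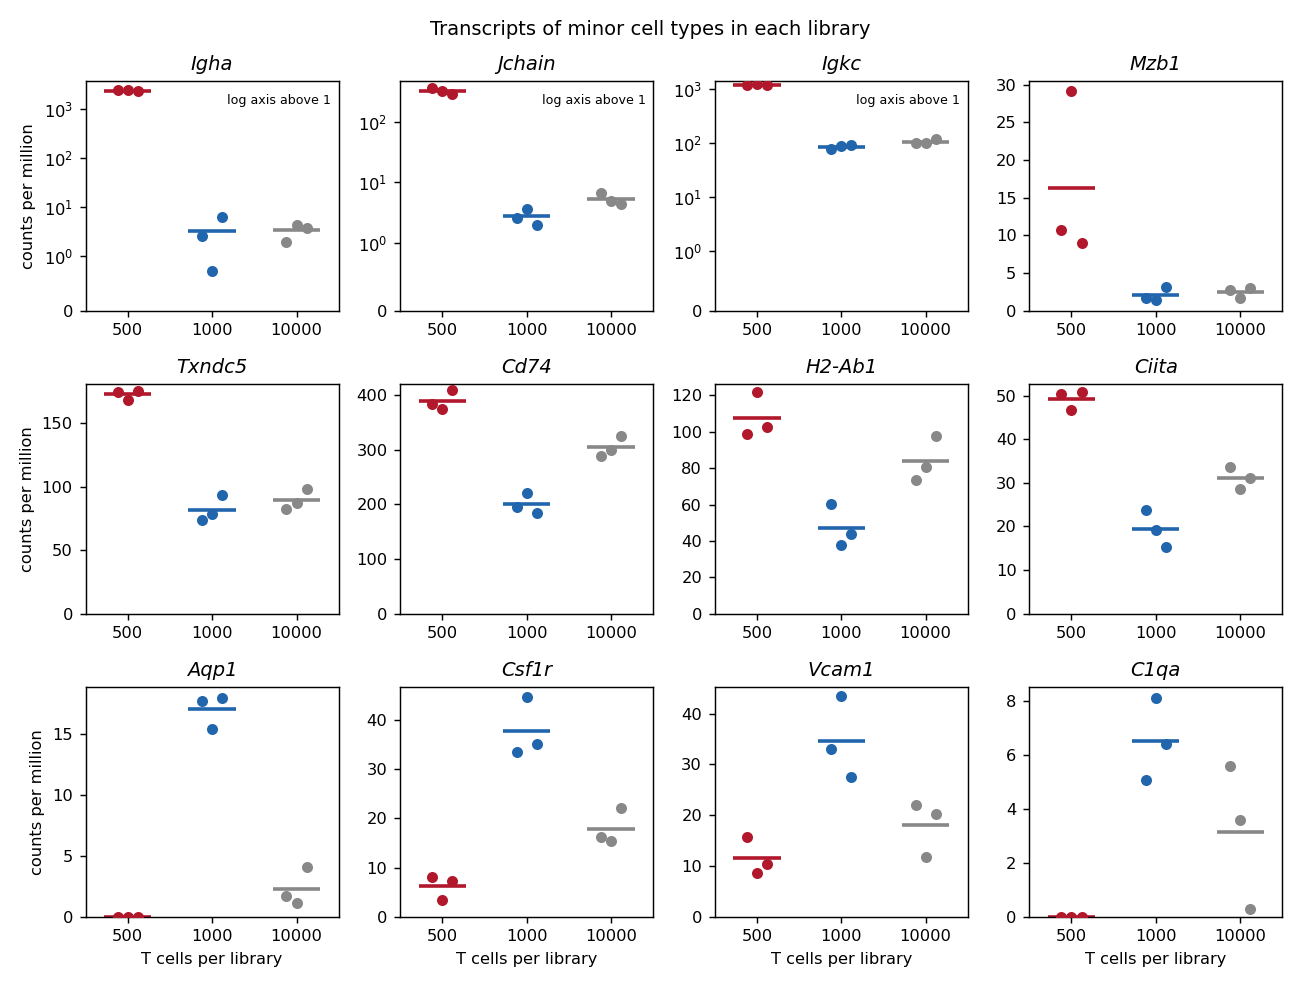
CPM of 12 genes in each library from 500, 1000 and 10000 T cells. Points are libraries, bars are means, and the axes of Igha, Jchain and Igkc are logarithmic above 1 CPM. The first 8 genes, from Igha to Ciita, lie higher in every 500-cell library than in any 1000-cell library, and Aqp1, Csf1r, Vcam1 and C1qa lie lower.

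Some genes of macrophages were lower at 500 cells. Of 20 macrophage and monocyte genes, 14 were tested, 13 of them had a log2 fold change below 0, and 2 were called lower at 500 cells, with a list median of -0.83. Over all 12838 genes tested, 6274 were below 0 and 0.249% were called lower. The list median was the same with C1qa set to its bound, and -0.43 without 1000-cell replicate 2. Csf1r, the receptor for the macrophage growth factor M-CSF, had 8.04, 3.50 and 7.20 CPM at 500 cells, against 33.4, 44.6 and 35.2 CPM at 1000 cells. It fell by 2.61 on the log2 scale (SE 0.396, edgeR adjusted p = 7.59e-05), with groups far apart. C1qa, a chain of complement C1q that tissue macrophages secrete, had 0 counts in all 3 libraries of 500 cells, against 12, 22 and 16 counts at 1000 cells. It was at least 15.5-fold lower at 500 cells if counts are independent, taking a floor of 3 counts over the group, which is 0.426 CPM (edgeR adjusted p = 0.0275). Its adjusted p ranged from 0.102 to 0.253 when any 1 of the 6 libraries was left out. C1qc, another C1q chain in the list, fell less and was not called (log2 fold change -0.84, edgeR adjusted p = 0.764). Lyz2, lysozyme of myeloid cells, averaged 7.48 ± 1.84 CPM at 500 cells and 17.6 ± 1.53 CPM at 1000 cells (SD, n = 3 each) and was not called (edgeR adjusted p = 0.29). Adgre1, which encodes the macrophage antigen F4/80, averaged 7.89 ± 3.86 CPM at 500 cells and 13.9 ± 5.87 CPM at 1000 cells (SD, n = 3 each) and was not called (edgeR adjusted p = 0.608). The list's share of the counts was 0.0533% ± 0.00138 at 500 cells and 0.0700% ± 0.00521 at 1000 cells (SD, n = 3 each). Most of that share lay on Ctsb, Ctss and Ly6c2, the members with the highest levels, none of them called.

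Among 11 genes of red pulp macrophages, 10 were tested, with a median log2 fold change of -1.20. In this list 8 were below 0, beside 6274 of all 12838 genes, and 1 was called lower, beside 0.249% of all genes. The called gene was Vcam1, an adhesion molecule of red pulp macrophages and stroma, with 15.6, 8.54 and 10.3 CPM at 500 cells, against 33.0, 43.5 and 27.6 CPM at 1000 cells (its log2 fold change was -1.60, SE 0.364, edgeR adjusted p = 0.0273). Left out in turn, each library but 500-cell replicate 1 (adjusted p = 0.0177) removed the call, with adjusted p from 0.0715 to 0.253. Slc40a1, the iron exporter ferroportin, had 13.0, 14.0 and 4.05 CPM at 500 cells and 16.1, 23.2 and 52.7 CPM at 1000 cells, and did not pass (edgeR adjusted p = 0.091). The list held 0.00653% ± 0.000896 of the counts at 500 cells and 0.0139% ± 0.000828 at 1000 cells (SD, n = 3 each), where no 500-cell library reached the lowest 1000-cell library. Plxnb2, a semaphorin receptor outside the lists, had 1.34, 3.50 and 2.25 CPM at 500 cells, against 13.1, 18.8 and 16 CPM at 1000 cells (its log2 fold change was -2.73, SE 0.628, edgeR adjusted p = 0.0282), and kept its call in 1 of the 6 fits that left out a library.

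An erythroid gene had 0 counts in every 500-cell library. Aqp1, a water channel of erythrocytes and some endothelium, had 0, 0 and 0 counts at 500 cells, against 42, 42 and 45 counts at 1000 cells. It was at least 39.9-fold lower at 500 cells against the same floor, again if counts are independent (edgeR adjusted p = 9.79e-06). Its adjusted p stayed at or below 0.00056 when any 1 library was left out. At 10000 cells it had 1.67, 1.10 and 4.12 CPM, against a mean of 17.1 CPM at 1000 cells. Of 12 erythroid genes tested, 10 had a log2 fold change below 0, beside 6274 of all 12838 genes. In 9 of the 12, the 500-cell libraries lay below all 1000-cell libraries, beside 8.39% of all genes. Aqp1 alone was called, beside 0.249% of all genes called lower. The list median was -0.81, also with Aqp1 at its bound. Tfrc, the transferrin receptor that erythroid precursors and dividing cells use to take up iron, had 47.3, 48.5 and 51.7 CPM at 500 cells and 80.8, 91.7 and 81.5 CPM at 1000 cells (edgeR adjusted p = 0.0667). Car2, carbonic anhydrase of erythrocytes, averaged 8.37 ± 5.92 CPM at 500 cells and 27.1 ± 6.19 CPM at 1000 cells (edgeR adjusted p = 0.0589), and Slc4a1, the band 3 anion exchanger, 13.9 ± 10.1 CPM at 500 cells and 29.3 ± 4.01 CPM at 1000 cells (edgeR adjusted p = 0.286; SD, n = 3 each). The globin gene Hbb-bs differed little, with 60.7 ± 4.49 CPM at 500 cells and 72.2 ± 1.87 CPM at 1000 cells (log2 fold change -0.26, edgeR adjusted p = 0.699; SD, n = 3 each). Among the other globin genes tested, Hba-a1 and Hbb-bt fell further than Hbb-bs and Hba-a2 rose, with none called. Copies within the alpha or within the beta globins are near-identical, so the split between such copies is uncertain. The list's share was 0.0244% ± 0.00121 at 500 cells and 0.0393% ± 0.00137 at 1000 cells (SD, n = 3 each).

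Other cell types gave 0 genes called by edgeR or DESeq2, with 1 neutrophil and 2 stroma or endothelium genes at an unadjusted p under 0.05. Of neutrophil genes 7 were tested, of basophil and mast cell genes 3, of platelet and megakaryocyte genes 2, and of stroma and endothelium genes 12. Their median log2 fold changes were -0.61, 0.18, 0.03 and 0.37. The 4 Y-linked genes had too few counts to be tested.

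**Figure D4:**
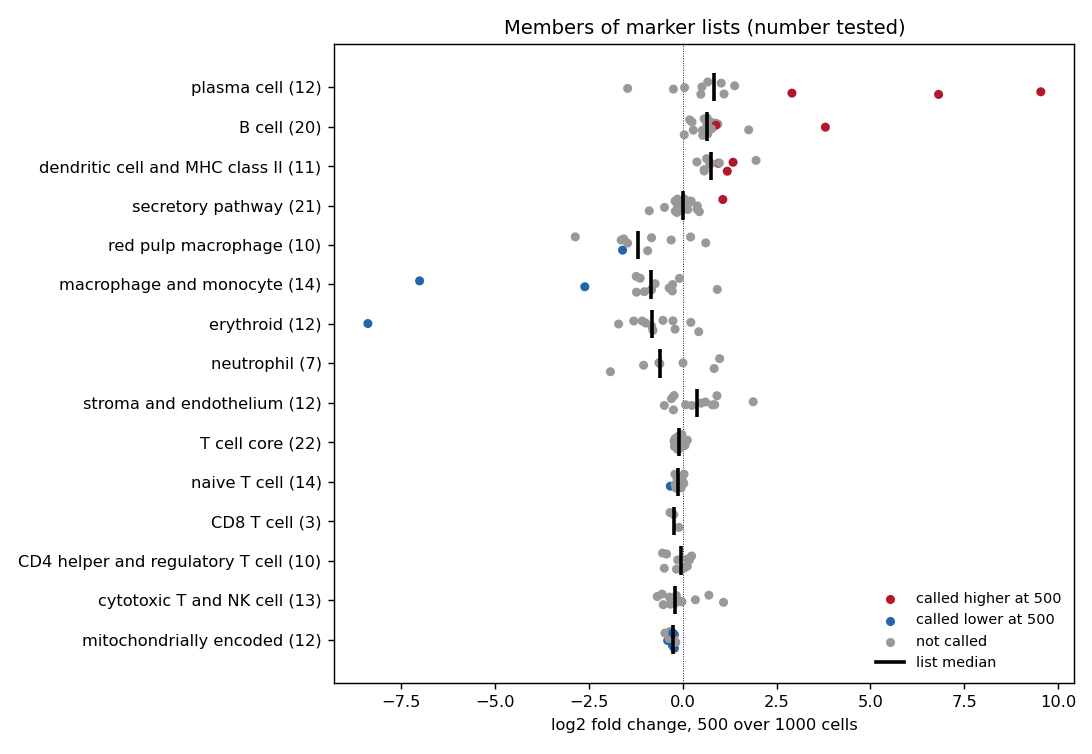
Log2 fold changes (500 over 1000 cells) of the tested members of 15 gene lists, 1 point a gene, with the number tested in brackets and a black bar at the list median. Medians are 0.84 for plasma cell and 0.65 for B cell genes, and -1.20, -0.83 and -0.81 for red pulp macrophage, macrophage and monocyte, and erythroid genes.

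T cell genes differed by small amounts. Of 22 T cell core genes, 0 were called by edgeR (3 had an unadjusted p under 0.05, and DESeq2 called 1 lower). A log2 fold change below 0 was seen for 18 of them, and the median was -0.09. The same direction was seen for 54 of 79 ribosomal protein genes, 12 of 18 housekeeping genes and 6274 of all 12838 genes tested. Trac, the constant region of the T cell receptor alpha chain, had 710.2, 724 and 767 CPM at 500 cells and 847, 789 and 772 CPM at 1000 cells (edgeR adjusted p = 0.481). Among 14 naive T cell genes 1 was called lower, Il7r, the receptor for the survival cytokine IL-7, with 598, 506 and 586 CPM at 500 cells, against 690.4, 723 and 697 CPM at 1000 cells (its log2 fold change was -0.33, SE 0.0783, edgeR adjusted p = 0.0363). This call held in 1 of 6 fits without a library. Cd8b1, the CD8 beta chain, had 394, 417 and 399 CPM at 500 cells and 508, 524 and 491 CPM at 1000 cells, which did not overlap and just missed the threshold (log2 fold change -0.34, edgeR adjusted p = 0.0517). Cd4 had 489, 477 and 433 CPM at 500 cells and 419, 450.1 and 359 CPM at 1000 cells (edgeR adjusted p = 0.491). The 3 CD8 T cell genes held 0.0872% ± 0.000423 of the counts at 500 cells and 0.104% ± 0.00585 at 1000 cells (SD, n = 3 each), and no library of 500 cells reached the lowest of 1000 cells.

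Of the lower genes outside the lists, 5 that T cells express are described next; they were chosen after their values were seen. Prkcq, the protein kinase C theta of T cell receptor signalling, had 423, 396 and 441 CPM at 500 cells, against 517, 558 and 595 CPM at 1000 cells (its log2 fold change was -0.42, SE 0.0858, edgeR adjusted p = 0.00999). Rasgrp1, which activates Ras below the T cell receptor, averaged 437 ± 26.5 CPM at 500 cells and 559.6 ± 33.8 CPM at 1000 cells (log2 fold change -0.36, edgeR adjusted p = 0.0307). Ms4a4b, a membrane protein of naive T cells, averaged 1043 ± 49.2 CPM at 500 cells and 1345 ± 103 CPM at 1000 cells (log2 fold change -0.38, edgeR adjusted p = 0.000243; SD, n = 3 each), and was called in all 6 fits without a library. Cd96, a receptor of T and NK cells, had 146, 136 and 157 CPM at 500 cells, against 195, 240.1 and 211 CPM at 1000 cells (its log2 fold change was -0.57, SE 0.134, edgeR adjusted p = 0.0343). Vipr1, a receptor for the neuropeptide VIP, averaged 111 ± 10.7 CPM at 500 cells and 173 ± 12 CPM at 1000 cells (log2 fold change -0.65, edgeR adjusted p = 0.0273; SD, n = 3 each). Prkcq kept its call in 4 of those 6 fits, Rasgrp1 in 2, Vipr1 in 1 and Cd96 in 0.

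T cell receptor variable genes differed less than the antibody genes. Trbv genes summed to 239 ± 5.16 CPM at 500 cells and 349 ± 32.0 CPM at 1000 cells, and Trav genes to 124 ± 8.18 CPM at 500 cells and 167 ± 23.7 CPM at 1000 cells (SD, n = 3 each). For both families every 500-cell library lay below every 1000-cell library, and these sums were not tested. Trav7-4, which led at 1000 cells, took 1.10%, 3.97% and 2.03% of Trav counts at 500 cells, against 8.55%, 7.72% and 7.91% at 1000 cells. The shares did not overlap, but Trav7-4 was picked from 108 Trav genes for its lead at 1000 cells, which favours such a gap. Its level did not pass the test (log2 fold change -2.18, SE 0.656, edgeR adjusted p = 0.13). Trav9-2, picked in the same way for its lead at 500 cells, took 6.96%, 4.64% and 7.09% there, against 0.885%, 2.12% and 2.40% at 1000 cells. Its level was not called (edgeR adjusted p = 0.577). In the beta family Trbv3 led at 500 cells with 11.7% ± 2.84, against 8.88% ± 5.36 at 1000 cells, and Trbv13-2 had 11.1% ± 3.94 at 500 cells and 10.4% ± 1.5 at 1000 cells (SD, n = 3 each), where it led. Those ranges overlapped for both genes.

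Mitochondrially encoded transcripts were lower at 500 cells. Of 12 tested, all had a log2 fold change below 0, 6 were called lower, and the median was -0.27. Over all 12838 genes tested, 6274 were below 0 and 0.249% were called lower. mt-Co1, a subunit of cytochrome c oxidase, had 7419, 7079.7 and 7322 CPM at 500 cells, against 8465, 8265 and 8553 CPM at 1000 cells (its log2 fold change was -0.22, SE 0.0243, edgeR adjusted p = 5.31e-08). mt-Nd2, a subunit of complex I, had 1174, 1205 and 1256 CPM at 500 cells, against 1490.3, 1692 and 1588 CPM at 1000 cells (its log2 fold change was -0.40, SE 0.0556, edgeR adjusted p = 1.19e-05). The others called were mt-Nd1 (-0.28), mt-Nd4 (-0.26), mt-Nd5 (-0.22) and mt-Cytb (-0.26), all log2 fold changes. The share of all counts was 1.68% ± 0.0317 at 500 cells and 1.99% ± 0.0312 at 1000 cells, beside 1.74% ± 0.0602 at 10000 cells (SD, n = 3 each). Nuclear genes for oxidative phosphorylation had 0 of 77 called by edgeR, 2 at an unadjusted p under 0.05, 0 called by DESeq2 and a median of 0.00. Ribosomal protein genes had 1 of 79 called, Rpl5, with 1653, 1721 and 1724 CPM at 500 cells, against 1947, 1978 and 1949.8 CPM at 1000 cells (log2 fold change -0.21, edgeR adjusted p = 0.0176). Its call held in 3 of 6 fits without a library.

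A group of 12 predicted genes around Gm10800, which has no assigned role here, took 8.56% ± 0.173 of the counts at 500 cells and 6.77% ± 0.114 at 1000 cells (SD, n = 3 each). Of these, 5 were called higher, beside 0.187% of all genes tested. Gm10800 had 69741, 66819 and 70913 CPM at 500 cells, against 54696, 54325 and 55874 CPM at 1000 cells (its log2 fold change was 0.32, SE 0.0127, edgeR adjusted p = 2.14e-22). Counts for Lars2, the gene of a mitochondrial leucyl-tRNA synthetase, fell, with 12045, 13524 and 13378 CPM at 500 cells, against 14638, 17046 and 17263 CPM at 1000 cells (its log2 fold change was -0.34, SE 0.0347, edgeR adjusted p = 8.48e-09). Lars2 alone took 1.30% of the counts at 500 cells and 1.63% at 1000 cells, beside 0.955% and 1.00% for the 22 T cell core genes. Whether all these reads came from Lars2 transcripts was not tested. With the 13 genes of the Gm10800 group and Lars2 taken out before normalization, 22 genes were higher and 39 lower, and over all genes the median log2 change was 0.01. At 10000 cells the Gm10800 group took 4.63% ± 0.323 of the counts (SD, n = 3). The part of the mitochondrial share in the smaller differences was not tested.

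**Figure D5:**
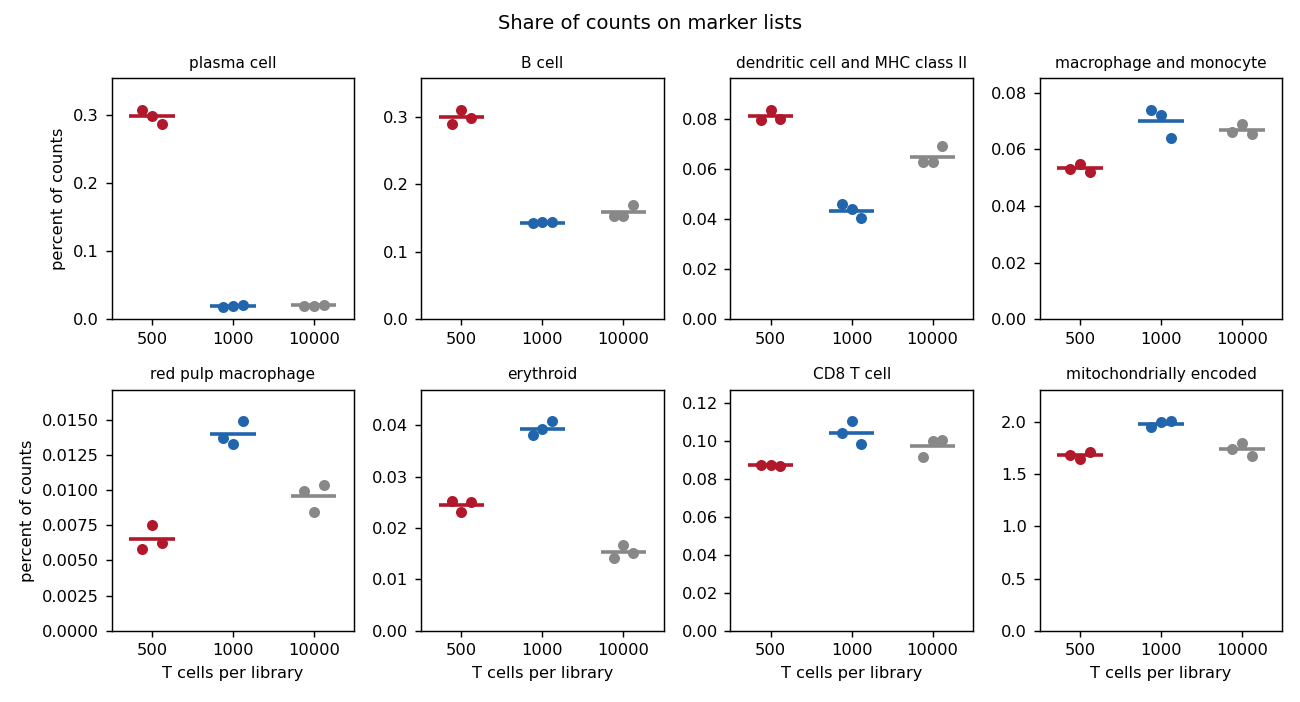
Percent of all counts on 8 gene lists in each library from 500, 1000 and 10000 T cells, with points for libraries and bars for means. The plasma cell list, Igha and Jchain included, holds 0.298% at 500 cells and 0.0192% at 1000 cells. The erythroid list holds 0.0244% at 500 cells and 0.0393% at 1000 cells.

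The remaining called genes fell outside any cell type list or were single members of other lists. Nr4a1 and Nr4a3, nuclear receptors induced by antigen receptor signals, were called higher at 500 cells, but in 1 and 2 of the 6 fits without a library. Nr4a1, the 1 called of 16 immediate early genes tested, had 85.8, 98.2 and 133 CPM at 500 cells, against 62.6, 57.1 and 57.1 CPM at 1000 cells (log2 fold change 0.83, edgeR adjusted p = 0.0422). Nr4a3 had 44.7, 23.7 and 38.2 CPM at 500 cells, against 8.88, 16.6 and 7.99 CPM at 1000 cells (log2 fold change 1.65, edgeR adjusted p = 0.0273). The 16 immediate early genes had a median of -0.14. March8, a membrane ubiquitin ligase, had 20.1, 14.8 and 23.4 CPM at 500 cells, against 4.23, 1.47 and 2.40 CPM at 1000 cells (log2 fold change 2.83, edgeR adjusted p = 0.00949), and kept its call in 3 of those fits. Mycbp2, a large ubiquitin ligase, averaged 883 ± 102 CPM at 500 cells and 638 ± 64.5 CPM at 1000 cells (SD, n = 3 each; log2 fold change 0.46, edgeR adjusted p = 0.000766), and was called in all 6 fits without a library. Rpgrip1l, Mgat4a and Utp6 had log2 fold changes of 1.62, 1.34 and 1.28 with edgeR adjusted p of 0.0488, 0.0498 and 0.0136, and kept their calls in 0, 2 and 2 of those fits.

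Among the falls, Ifit1 was the 1 called of 20 interferon response genes tested, with 38.9, 38.4 and 25.2 CPM at 500 cells, against 72.8, 64.8 and 79.1 CPM at 1000 cells (its log2 fold change was -1.09, SE 0.246, edgeR adjusted p = 0.0273). The list's median was -0.13. Cul4b, a ubiquitin ligase scaffold, had 15.6, 24.5 and 38.7 CPM at 500 cells, against 57.5, 73.7 and 65.1 CPM at 1000 cells (log2 fold change -1.33, edgeR adjusted p = 0.0139). Fbf1, a protein of ciliary transition fibres, averaged 16 ± 8.45 CPM at 500 cells and 44.1 ± 8.07 CPM at 1000 cells (log2 fold change -1.48, edgeR adjusted p = 0.0363; SD, n = 3 each). Arl6ip1, a protein that shapes the endoplasmic reticulum, fell by 0.54 (edgeR adjusted p = 0.0318). Sf3b1, a splicing factor subunit, fell by 0.26 on the log2 scale, Eif4g2, a translation initiation factor, by 0.31 and H2-K1, an MHC class I chain, by 0.16, each called in 5 of the 6 fits without a library. Hnrnpa2b1, an RNA-binding protein, fell by 0.29 and was called in 3 of them. The calls of Ddx5, an RNA helicase (a log2 fall of 0.16, called in 2), and Eef1b2, a translation elongation factor (0.30, called in 1), were also lost when libraries were scaled by their totals alone. Of the genes named above, Cul4b kept its call in 3, Ifit1 and Fbf1 in 2 and Arl6ip1 in 1 of these fits. Proteasome and histone genes had 0 called by edgeR, 0 by DESeq2 and 0 at an unadjusted p under 0.05. This covers 38 of 39 proteasome genes but 10 of 67 histone genes, as the others did not pass the filter on low counts. Heat shock, cell cycle, CD4 helper and regulatory, and cytotoxic T and NK cell genes also had 0 called by edgeR, with 2 at an unadjusted p under 0.05 in each of these lists. Among them DESeq2 called 1 heat shock and 1 cytotoxic gene. Of 18 housekeeping genes, edgeR called 0 and DESeq2 called 1, and 5 had an unadjusted p under 0.05.

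The calls differed in how far they depended on single libraries. Of the 24 higher genes, 11 were called in all 6 fits that left out 1 library: Igha, Ighv1-9, the leading kappa variable gene, Igkc, Jchain, Txndc5, Cd74, H2-Ab1, Mycbp2, Gm10800 and Gm21738. Of the 32 lower genes, 8 were called in all 6, namely Aqp1, Csf1r, Ms4a4b, Lars2, mt-Nd1, mt-Nd2, mt-Co1 and mt-Cytb. Over 17 settings, these 6 fits included, no called gene changed direction in a setting that tested it: 44 genes were tested in all 17, 11 in 16 and 1 in 14. The median merged length of all exons of a gene was 2542.5 bases for the higher genes and 5131.5 bases for the lower ones, beside 5000.5 bases over the genes tested.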

How the data were processed

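RNA counts of 6 mouse T cell libraries (500 and 1000 cells, 3 each) were analysed, with 10000-cell libraries set beside them. The deposited table holds whole-number counts per gene symbol, and the authors applied no normalization to it. Per the submitters' processing notes, HISAT2 2.1.0 and featureCounts were used with build mm8; neither the strand setting nor the featureCounts version is given in the sources used here. Overlapping and antisense genes and variable gene relatives can therefore share reads. Between 61.8% and 63.3% of a library's nonzero counts were even, so both mates of a pair may have been counted, and counts are not independent molecules; floors cover counting error only.

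Genes were tested with edgeR 4.0.16 in R 4.3.3: TMM, filterByExpr, quasi-likelihood test, Benjamini-Hochberg adjustment over 12838 genes, threshold 0.05, no covariate. SE are from this fit; CPM use library totals. Folds against 0 counts are bounds from 3 counts over the group. Lists (27) were described by counts, medians and shares, with no set test; 6.90% of calls on simulated data were false. Lengths and sequences came from GENCODE M21 (GRCm38), matched by symbol (99.9% of genes tested), as no mm8 reference was used.

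Genes eligible to be named were the 12 largest rises and falls called with non-overlapping groups and at least 10 CPM, called list members and up to 4 members per list of the highest mean, and leading variable genes; the other called genes, some list members that missed the threshold and members outside this rule were chosen after their values were seen. Members and lists were chosen with earlier results of these data known. The name of the leading kappa gene and the values of some other genes are not reported here. Alternatives were DESeq2 1.42.0, other scaling, filters and fits, halved counts, gene groups left out, the replicate number as a block, and leaving out each library.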

Additional observations from a re-analysis of the deposited data

How the results depend on the processing

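Counts of called genes moved with the fit (24 higher and 32 lower as reported). DESeq2 gave 133 higher and 184 lower, no filter on low counts 45 and 87, and a stricter filter 45 and 42. Halved counts gave 57 and 58. All 4 T cell groups in 1 fit gave 3 and 0. The 500-, 1000- and 10000-cell libraries in 1 fit, an alternative chosen after seeing the data, gave 91 and 130. Leaving out each library in turn gave 12 to 26 higher and 11 to 32 lower. The lowest counts came without 1000-cell replicate 3 (12 and 11) and replicate 2 (14 and 12). Without 500-cell replicate 3 there were 14 and 21, and without 1000-cell replicate 1 there were 17 and 21. The causes were not tested, except that fits without a library hold fewer samples. With immunoglobulin genes left out 17 genes were higher and 31 lower.

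Over all genes, same-numbered libraries showed little in common: their residual correlations were 0.00834, 0.0255 and -0.00337. A correlation over all genes cannot show pairing that is confined to some of them. With the replicate number as a block, 39 genes were higher and 54 lower, which held all 24 and all 32 of those reported.

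The called genes and the others with a value in the text, C1qc apart, were compared with each alternative, 1 case per gene and setting. A call was lost in 203 cases and gained in 51, while 1165 cases stayed the same and 6 changed direction. Of the values with no test, 12 list medians and 3 variable gene shares moved by more than the spread between libraries, none past 0. The medians were of cytotoxic T and NK cell (4 settings), neutrophil (3), B cell, macrophage and monocyte, basophil and mast cell, oxidative phosphorylation and histone genes (1 each). The shares moved when variable genes under 10 counts were left out. The log2 fold change of Hspa5, near 0 and not called in these fits, changed direction: it was -0.0204 with no filter on low counts, -0.0126 with all 4 T cell groups and -0.00165 with the 10000-cell libraries added, and it ranged over -0.0545 to 0.0284 when each library was left out. Of 78 further genes that the naming rule covers, 28 uncalled genes changed direction in some setting. At these depths 41% of simulated 2-fold changes were recovered, which limits what small changes could be seen.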

Other observations

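Genes just outside the threshold included further B cell genes that no list held. Irf8, a transcription factor of B cells and dendritic cells, averaged 52.1 ± 10.8 CPM at 500 cells and 23.8 ± 7.37 CPM at 1000 cells (log2 fold change 1.12, edgeR adjusted p = 0.0612). Bcl11a, a factor needed for early B cells, averaged 34.1 ± 14.3 CPM at 500 cells and 13.4 ± 2.56 CPM at 1000 cells (log2 fold change 1.33, edgeR adjusted p = 0.0811). Cd180, a Toll-like receptor relative on B cells, averaged 29.6 ± 8.86 CPM at 500 cells and 11.1 ± 3.0 CPM at 1000 cells (log2 fold change 1.40, edgeR adjusted p = 0.0868). Iglc1, a lambda light chain constant region, averaged 19.9 ± 0.310 CPM at 500 cells and 5.15 ± 3.60 CPM at 1000 cells (log2 fold change 1.94, edgeR adjusted p = 0.0697). SD are over n = 3 libraries, and the groups did not overlap for any of these 4 genes, beside 8.19% of all genes tested that were higher without overlap. These genes were picked after their values were seen.

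In the 10000-cell libraries, Ighv1-9 had 0, 0 and 6 counts. Cd74, H2-Ab1 and Ciita averaged 305, 83.8 and 31.2 CPM there, and Csf1r and Vcam1 17.9 and 18.1 CPM. All 5 means lay between those of the 500-cell and the 1000-cell libraries. Hbb-bs averaged 19.3 CPM at 10000 cells, below both.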
